A study of Mus musculus with 12 samples.

Results

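Acute phase proteins are plasma proteins whose synthesis in the liver changes within hours of infection, injury or hormone treatment. Their messenger RNA was followed here through 10 genes, chosen by symbol from a mouse liver RNA-seq table of 54838 genes, namely the serum amyloid A genes Saa1, Saa2 and Saa3, the orosomucoid genes Orm1 and Orm2, haptoglobin (Hp), lipocalin 2 (Lcn2), the fibrinogen beta chain (Fgb), serum amyloid P component (Apcs) and inter-alpha-trypsin inhibitor heavy chain Itih4. All 10 were found and counted. The livers came from female C57BL/6J mice of 8 to 14 weeks that drank, for 7 days, either normal water or water holding 25 mM ZnSO4. They then received 1 injection of the synthetic glucocorticoid dexamethasone (Dex, 200 µg) or of its solvent, phosphate-buffered saline (PBS), and were sampled 2 hours later. This gave 4 groups of 3 libraries, named by drink and injection: water-PBS and water-Dex, zinc-PBS and zinc-Dex. No group received an inflammatory stimulus. The study asked whether zinc alters the gene response to glucocorticoids. Both PBS groups were injected and handled as the Dex groups were, so a response to the injection itself, shared by all 4 groups, could not be measured.

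The classical acute phase response starts when macrophages and other cells release tumour necrosis factor and interleukins, which act on receptors of hepatocytes. STAT3, NF-kB and the C/EBP proteins are the transcription factors that then raise the genes for serum amyloid A, haptoglobin, orosomucoid and fibrinogen. Glucocorticoids act through the glucocorticoid receptor, itself a transcription factor, which raises some of the same genes in hepatocytes and represses many cytokine genes. Serum amyloid A travels on high-density lipoprotein, haptoglobin binds free haemoglobin, lipocalin 2 binds bacterial iron carriers and orosomucoids bind drugs and lipids in plasma.

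The upstream sequences of 8 of the 10 genes were taken from RefSeq (build GRCm38.p6), and Orm1 and Hp had no matching entry. In the 250 bases before each RefSeq start site, both strands were searched for TTCNNNGAA (STAT), GGNNTTTCC (NF-kB), TTNNGNAAT (C/EBP) and ACANNNTGT (glucocorticoid receptor). Of 32851 promoters of the same length, 7.02%, 4.93%, 10.2% and 5.84% held a match to these letters, in that order. A match is a description of letters and not a binding site. Saa1 and Saa2 are shown because these near-identical neighbours kept different read counts after Dex, Lcn2 because it had the largest Dex response of the 10 genes, and Fgb because it carries the same glucocorticoid receptor letters as Lcn2 but changed little. Capitals mark the motif matches.
Saa1: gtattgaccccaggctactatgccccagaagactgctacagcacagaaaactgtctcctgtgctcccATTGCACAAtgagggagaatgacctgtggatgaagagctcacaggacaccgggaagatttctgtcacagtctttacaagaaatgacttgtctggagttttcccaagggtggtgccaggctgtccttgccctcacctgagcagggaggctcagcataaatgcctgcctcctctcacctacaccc
Saa2: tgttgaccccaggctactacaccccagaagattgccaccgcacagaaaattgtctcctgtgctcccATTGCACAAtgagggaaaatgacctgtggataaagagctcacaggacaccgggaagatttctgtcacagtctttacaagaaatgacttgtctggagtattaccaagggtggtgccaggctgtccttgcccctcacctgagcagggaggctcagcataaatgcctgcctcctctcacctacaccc
Lcn2: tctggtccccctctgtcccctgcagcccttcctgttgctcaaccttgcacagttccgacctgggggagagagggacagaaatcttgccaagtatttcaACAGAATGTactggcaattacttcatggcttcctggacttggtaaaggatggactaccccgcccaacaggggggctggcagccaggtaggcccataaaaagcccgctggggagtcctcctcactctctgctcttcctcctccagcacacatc
Fgb: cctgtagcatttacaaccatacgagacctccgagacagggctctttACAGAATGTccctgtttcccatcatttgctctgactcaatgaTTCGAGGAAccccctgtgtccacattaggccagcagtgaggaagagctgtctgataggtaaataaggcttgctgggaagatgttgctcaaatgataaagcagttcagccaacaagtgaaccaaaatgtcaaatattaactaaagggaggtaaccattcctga
These stretches lie at chr7:46742981-46743230, minus strand, at chr7:46751583-46751832, plus strand, at chr2:32387740-32387989, minus strand and at chr3:83049864-83050113, minus strand, respectively. RefSeq starts differ in part from the gene intervals given below, which come from GENCODE. The Lcn2 stretch lies wholly inside its interval, chr2:32384633-32388252, and the Saa2 stretch runs past its interval's start at chr7:46751790. Counted from the RefSeq start, with bases before it negative, the C/EBP letters began at -183 in Saa1 and at -184 in Saa2. The match of Lcn2 to the glucocorticoid receptor letters began at base -152, and Fgb held the identical letters from base -204 as well as STAT letters from base -162. Of the genes not printed, Saa3 matched NF-kB at -187, Orm2 matched C/EBP at -109, and Apcs and Itih4 matched STAT at -244 and -51.

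Total counts ranged from 9091152 to 12303527 reads per library. Levels are given as normalized read counts, which are the deposited counts divided by a DESeq2 size factor for sequencing depth. Hepatocyte markers such as Alb were high in all 12 libraries, as the liver label requires. Replicates differed by more than sampling noise (chi-square per degree of freedom 5.70 to 18.8), so none was a copy of another. The zinc-PBS replicate 1 library stood apart from the other 2 of its group for several acute phase genes, and water-PBS replicate 2 did so for fewer. Results that rest on them are therefore given with and without them. In whole liver, a lower level in each cell and fewer cells of a type cannot be told apart.

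Per kilobase of the longest transcript that the gene annotation tags as principal, the levels of the 10 genes in water-PBS livers differed widely. For Saa3 this transcript has 555 bases, while its longest coding transcript has 2200. Fgb was highest at 14093 normalized counts per kilobase, followed by Hp at 10688, Orm1 at 8587 and Itih4 at 5910. Apcs came next at 1667, then Saa1 at 799, Orm2 at 501 and Saa2 at 309, while Lcn2 at 84.4 and Saa3 at 50.6 were lowest. The order of Saa1, Orm2 and Saa2 was not beyond the spread of their replicates, whose coefficients of variation were 92.1%, 67.4% and 52.4%. In water-Dex livers Hp was highest at 37621 counts per kilobase and Lcn2 had passed Apcs at 1926 against 1646. Saa3 was lowest there as well, at 114 counts per kilobase.

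**Figure D1:**
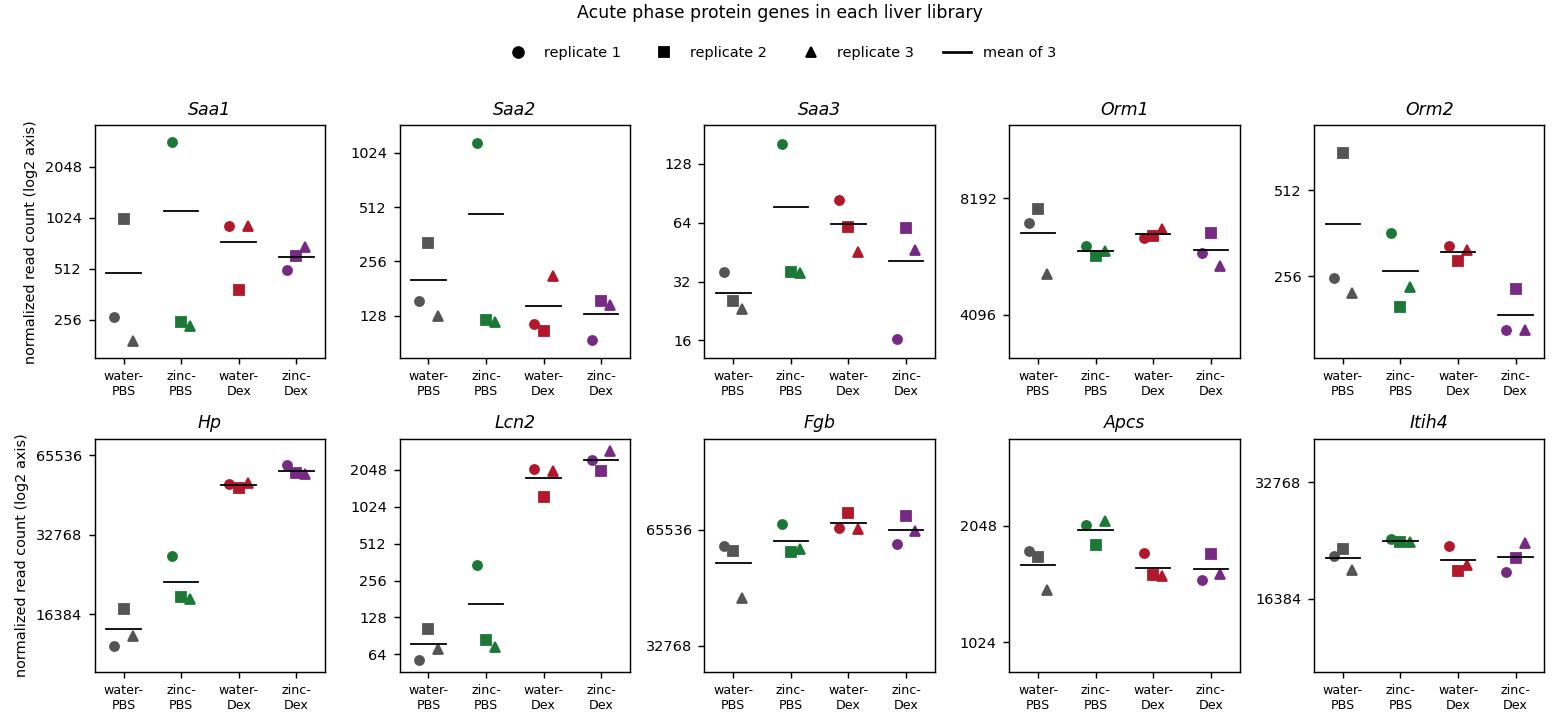
Normalized read counts (log2 axis, its range set per gene) of the 10 genes in the 12 libraries, by group, with symbols for replicates 1 to 3 and a line at the mean of 3. Hp and Lcn2 are higher in all 6 Dex libraries than in all 6 PBS libraries, and zinc-PBS replicate 1 lies far above its group for Saa1, Saa2, Saa3 and Lcn2.

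Dex raised 2 of the 10 genes in water-drinking mice, Lcn2 and Hp, and lowered none. A gene was called when its Benjamini-Hochberg adjusted p in DESeq2 was under 0.05 and its log2 fold change was beyond 0.8 in either direction. With all 12 libraries, Saa1 and Saa2 had no p in any comparison, so only 8 of the 10 genes could be called. Over all genes tested in this comparison, 4.89% were called higher and 4.79% lower. In zinc-drinking mice Dex again raised Lcn2 and Hp and lowered none, against 5.0% of tested genes higher and 4.68% lower. The combined treatment against water-PBS, which shares libraries with the other comparisons, also called these 2 genes, with 3.69% of tested genes higher and 3.55% lower. Its shares are over 21401 tested genes, against 14221 for Dex in water-drinking mice and 15657 in zinc-drinking mice. The median log2 fold change of the 10 genes was 0.17 for Dex in water-drinking mice and -0.24 in zinc-drinking mice, with medians of -0.01 over all tested genes in both comparisons. The value in zinc-drinking mice turned on zinc-PBS replicate 1, without which it was 0.16.

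Lcn2 (ENSMUSG00000026822, chr2:32384633-32388252, minus strand) codes for the siderophore-binding lipocalin. Its normalized counts were 57.8, 104 and 70.3 in water-PBS, 341, 83.9 and 73.3 in zinc-PBS, 2069, 1225 and 1993 in the water-Dex group and 2476, 1998 and 2904 in the zinc-Dex group. Every Dex library lay above every PBS library, and the gap held with zinc-PBS replicate 1 included. The group means were 77.3 ± 23.8 in water-PBS and 1762 ± 467 in water-Dex (SD, n = 3). Dex raised Lcn2 22.8-fold in water-drinking mice (log2 4.51, SE 0.57, DESeq2 adjusted p = 1.0e-13) and 14.8-fold in zinc-drinking mice (log2 3.89, SE 0.57, adjusted p = 1.9e-10). Their 95% confidence intervals, 10.5 to 49.5 and 6.87 to 31.9, overlapped. Without zinc-PBS replicate 1 the log2 change in zinc-drinking mice was 4.97 in place of 3.89. The difference between both Dex responses, the interaction, was -0.62 (SE 0.80, adjusted p = 1.0) and became 0.46 without that library.

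Hp (ENSMUSG00000031722, chr8:109575128-109579172, minus strand) codes for the haemoglobin scavenger haptoglobin. It was at 12391, 17165 and 13572 normalized counts in water-PBS, 27147, 19053 and 18724 in zinc-PBS, 51092, 49375 and 51332 in the water-Dex group and 60126, 56024 and 55357 in the zinc-Dex group. None of the 4 groups overlapped another, and they stood in the order water-PBS (lowest), zinc-PBS, then water-Dex, then zinc-Dex (highest). The share of all reads that mapped to Hp ran from 0.119% to 0.491% across the 12 libraries. Dex raised Hp 3.52-fold in water-drinking mice (log2 1.82, SE 0.15, DESeq2 adjusted p = 1.1e-33) and 2.64-fold in zinc-drinking mice (log2 1.40, SE 0.15, adjusted p = 3.3e-20). In the combined group Hp was 3.98-fold above water-PBS. Both calls stood in each of the 20 alternatives computed for them, with log2 changes of 1.72 to 1.96 and 1.31 to 1.60.

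Zinc alone called none of the 10 genes in PBS-injected mice (DESeq2, with 0.0813% of tested genes higher and 0.0569% lower). At an unadjusted p under 0.05, 3 of the 8 genes with a p (Hp, Apcs and Saa3) were higher and none lower, against 3.29% of all tested genes higher and 2.45% lower, and edgeR also called 0. Without zinc-PBS replicate 1 there were 2 (Hp and Apcs). Hp was the exception by its adjusted p alone, 1.51-fold higher with zinc (log2 0.59, SE 0.15, adjusted p = 0.019) but under the fold threshold. That adjusted p was 0.26 without zinc-PBS replicate 1, where the log2 change was 0.39, and 0.22 in edgeR, within a range of 1.3e-05 to 0.26 over the alternatives. In Dex-injected mice zinc called none of the 10 (0.305% of tested genes higher, 0.164% lower). There 0 of the 8 genes with a p in DESeq2 passed an unadjusted p under 0.05, edgeR called 0, and Hp was 1.13-fold higher (log2 0.18, SE 0.15, adjusted p = 0.80). All 3 zinc libraries of Hp lay above all 3 water libraries within each injection. Averaged over both injections, log2 Hp was 0.38 higher with zinc, with a two-sided exact permutation p = 0.005, the smallest that its 400 rearrangements of the drink within each injection can give. That test was chosen after the values were seen. Its p follows from the separation of the libraries just given, so it adds no support beyond that order.

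The zinc-by-Dex interaction was called for none of the 10 genes, with 0.00382% of tested genes higher and 0.0153% lower. At an unadjusted p under 0.05 the interaction was negative for 3 of the 8 genes with a p. These were Hp (log2 -0.41, SE 0.21), Apcs (-0.32, SE 0.16) and Saa3 (-2.09, SE 0.95), each with a DESeq2 adjusted p of 1.0. Over all tested genes 0.928% were lower and 1.07% higher at that p. The tested genes numbered 26185 here and 12307 for zinc with PBS, so the shares of these comparisons are not over the same genes. edgeR called 0. Without zinc-PBS replicate 1 none of the 10 genes passed an unadjusted p under 0.05, and the value was -0.22 for Hp, -0.29 for Apcs and -0.97 for Saa3.

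**Figure D2:**
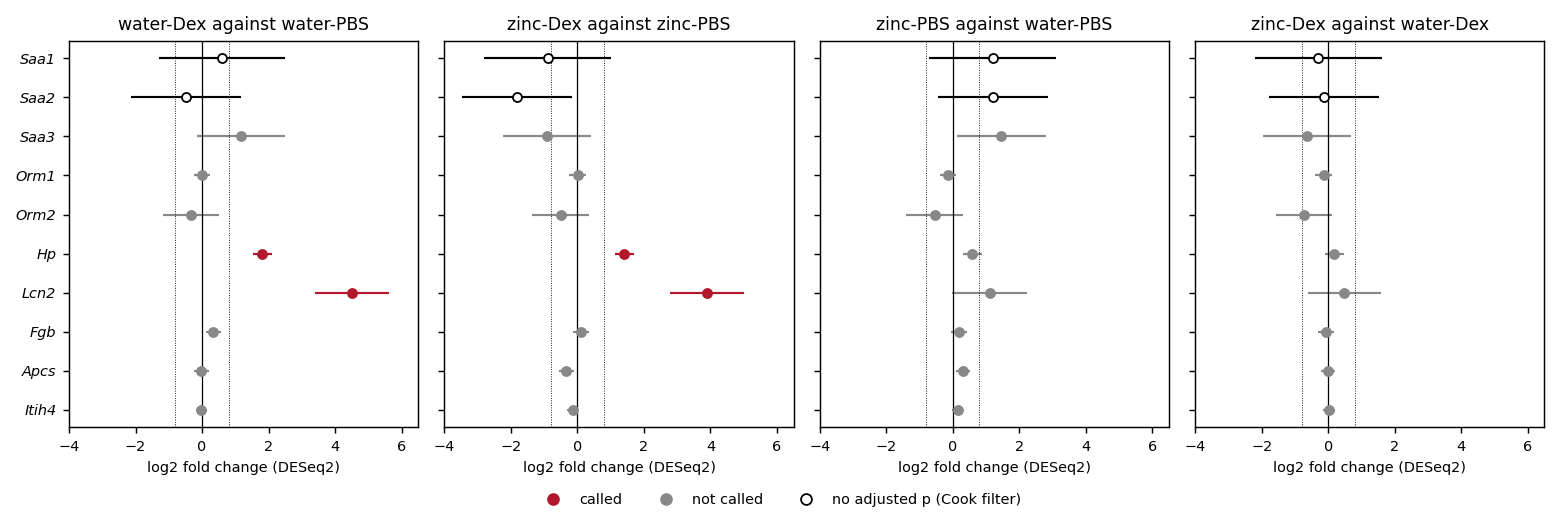
Log2 fold changes of the 10 genes in DESeq2 (points) with 95% confidence intervals (bars) for Dex in water-drinking mice, Dex in zinc-drinking mice, zinc with PBS and zinc with Dex, from left to right. Dotted lines stand at -0.8 and 0.8, red marks called genes, and only Hp and Lcn2 are red, in both Dex comparisons.

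Serum amyloid A showed no called change between groups but the widest spread between libraries of 1 group. Saa1 (ENSMUSG00000074115, chr7:46740497-46742980, minus strand), a main circulating form, was at 267, 1002 and 191 normalized counts in water-PBS, 2865, 250 and 236 in zinc-PBS, 912, 382 and 919 in the water-Dex group and 505, 608 and 689 in the zinc-Dex group. Water-PBS replicate 2 and zinc-PBS replicate 1 were high, and the other 4 PBS libraries lay below all 6 Dex libraries. DESeq2 gave Saa1 no adjusted p in any comparison, because its Cook's distance filter marked single libraries as extreme. Dex changed Saa1 by log2 0.60 (SE 0.97) in water-drinking mice and -0.90 (SE 0.97) in zinc-drinking mice. Without zinc-PBS replicate 1 the latter turned to 1.31 (adjusted p = 0.22). Without water-PBS replicate 2 the value in water-drinking mice was 1.69, with no adjusted p. These 2 libraries were singled out for their high Saa1, so a test of Saa1 without both of them would rest on that choice, and none is given.

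Saa2 (ENSMUSG00000057465, chr7:46751790-46754313, plus strand), the neighbouring circulating form, was at 154, 322 and 127 in water-PBS, 1160, 122 and 118 in zinc-PBS, 115, 105 and 213 in the water-Dex group and 93.4, 154 and 147 in the zinc-Dex group. The same 2 PBS libraries were high as for Saa1, and the other PBS libraries overlapped the Dex libraries. Saa2 changed by log2 -0.48 (SE 0.85) with Dex in water-drinking mice and -1.82 (SE 0.84) in zinc-drinking mice, again with no adjusted p in DESeq2. Without zinc-PBS replicate 1 the value in zinc-drinking mice was 0.14 (adjusted p = 0.90), whereas leaving out zinc-PBS replicate 2 or 3 gave -2.28 with adjusted p = 0.044 and 0.041. The direction of Saa2 with Dex in zinc-drinking mice thus turned on 1 library.

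Saa3 (ENSMUSG00000040026, chr7:46711998-46715700, minus strand), which macrophages and other cells outside hepatocytes also make, was low, with raw counts from 15 to 178. Its normalized counts were 35.7, 25.5 and 23.1 in water-PBS, 161, 35.8 and 35.3 in zinc-PBS, 83.3, 60.6 and 45.5 in the water-Dex group and 16.3, 59.98 and 46.1 in the zinc-Dex group. All 3 water-Dex libraries lay above all 3 water-PBS libraries. The difference was log2 1.17 (SE 0.68, DESeq2 adjusted p = 0.24). It was called in 2 of the 20 alternatives, and not in edgeR (adjusted p = 0.17). These were the fit without zinc-PBS replicate 1 (log2 1.17, adjusted p = 0.016) and that of only the libraries compared (log2 1.17, adjusted p = 0.0039). Both fits leave out zinc-PBS replicate 1, a library singled out for high values that include Saa3, so nothing is drawn from these calls.

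The orosomucoids, plasma carriers of small molecules, were not called in any comparison. Orm1 (ENSMUSG00000039196, chr4:63344560-63348163, plus strand) was at 7060, 7697 and 5208 normalized counts in water-PBS, 6156, 5818 and 5984 in zinc-PBS, 6467, 6557 and 6831 in the water-Dex group and 5917, 6662 and 5468 in the zinc-Dex group. All groups overlapped water-PBS, and Dex changed Orm1 by log2 -0.01 (95% confidence interval -0.26 to 0.24) in water-drinking mice. Orm2 (ENSMUSG00000061540, chr4:63362449-63365878, plus strand) was at 252, 691 and 223 in water-PBS, 364, 199 and 234 in zinc-PBS, 326, 288 and 317 in the water-Dex group and 166, 230 and 165 in the zinc-Dex group. The 3 zinc-Dex libraries lay below the 3 water-Dex libraries, and water-PBS replicate 2 was the highest of all. Zinc-Dex livers had less Orm2 than water-Dex livers by log2 -0.73 (SE 0.44, DESeq2 adjusted p = 0.61), under the fold threshold. Its adjusted p was 0.043 without water-PBS replicate 2 and 0.0014 when only the libraries compared were fitted, and up to 1.0 under the other alternatives, with log2 values of -0.91 to -0.65. Against water-PBS the difference was log2 -1.06 (SE 0.43, adjusted p = 0.088). It was called in edgeR (-1.08, adjusted p = 0.033) and without water-PBS replicate 1 or 3 (adjusted p = 0.031 and 0.014), but without water-PBS replicate 2 it was -0.34 (adjusted p = 0.35).

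The remaining 3 genes moved little. Fgb (ENSMUSG00000033831, chr3:83040141-83049863, minus strand), which codes for a chain of the clot protein fibrinogen, was at 59636, 57757 and 43689 in water-PBS, 67706, 57280 and 58364 in zinc-PBS, 66265, 72273 and 65832 in the water-Dex group and 60161, 71216 and 64935 in the zinc-Dex group. The water-Dex libraries lay above the water-PBS libraries, 1.27-fold on average (log2 0.34, SE 0.12, DESeq2 adjusted p = 0.025), under the fold threshold. Without water-PBS replicate 3 the log2 change was 0.22 (adjusted p = 0.14, the highest over the alternatives). In zinc-drinking mice Fgb changed by log2 0.10 with Dex (adjusted p = 0.67), and the interaction of -0.24 (SE 0.17) had an adjusted p of 1.0. Apcs (ENSMUSG00000026542, chr1:172893961-172895041, minus strand) codes for the pentraxin serum amyloid P, a main acute phase protein of mice. It was at 1762, 1698 and 1397 in water-PBS, 2057, 1823 and 2109 in zinc-PBS, 1745, 1533 and 1516 in the water-Dex group and 1483, 1732 and 1534 in the zinc-Dex group. The zinc-PBS libraries were the 3 highest of all 12 (log2 0.30 against water-PBS, SE 0.11, DESeq2 adjusted p = 0.43). With Dex in zinc-drinking mice Apcs changed by log2 -0.34 (SE 0.11, adjusted p = 0.016), under the fold threshold, and the value in water-drinking mice was -0.02 (SE 0.11, adjusted p = 0.94). In zinc-drinking mice that adjusted p ran from 0.0045 to 0.11 over the alternatives. Itih4 (ENSMUSG00000021922, chr14:30886476-30902353, plus strand), a relative of the inter-alpha-trypsin inhibitor chains, stayed between 19237 and 23322 normalized counts in all 12 libraries. Its Dex change was log2 -0.02 (95% confidence interval -0.19 to 0.15) in water-drinking mice.

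Within the PBS groups, the 2 high libraries differed from each other. Zinc-PBS replicate 1 was the highest of its group for 9 of the 10 genes and over 2-fold above the mean of the other 2 for 4 of them. These were Saa1 at 11.8-fold, Saa2 at 9.70-fold, Saa3 at 4.52-fold and Lcn2 at 4.34-fold. Over the 9574 genes whose mean normalized count was 50 or more, 0.543% were over 2-fold in this library. How often it was the highest of its group over all genes was not counted. Of the cytokine and signalling genes, 7 of 23 with enough reads were over 2-fold as well, among them Nfkbiz (918 against 82.2 and 132 normalized counts), the cytokine signalling inhibitor Socs3 (701 against 83.9 and 146), the NF-kB inhibitor Nfkbia (1139 against 302 and 372) and Il1b (134 against 24.5 and 39.8). Enough reads meant at least 10 in a library of the group, a lower bar than the mean of 50 behind the 0.543%. Il1b, Il1a and Tnf, with means of 24.6, 40.5 and 3.49 over all libraries, fell under that mean, so both shares are not over like genes. Hp was 1.44-fold and Orm2 1.68-fold above the other 2, while Orm1, Apcs and Itih4 were within 1.05-fold.

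Water-PBS replicate 2 was the highest of its group for 7 of the 10 genes and over 2-fold for 3 of them, Saa1 at 4.38-fold, Orm2 at 2.91-fold and Saa2 at 2.29-fold. Its Saa3 was 0.87 of the other 2. None of the 22 signalling genes with enough reads was over 2-fold there, and Socs3 was at 128 normalized counts against 110 and 75.8. Over all 9574 genes 0.125% were over 2-fold. For this library too, the share of all genes with the highest value of the group was not counted. Both libraries thus shared high Saa1 and Saa2, zinc-PBS replicate 1 alone had high Saa3, Lcn2 and cytokine-responsive genes, and Orm2 stood out more in water-PBS replicate 2. Neither library has a label that sets it apart from its group.

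**Figure D3:**
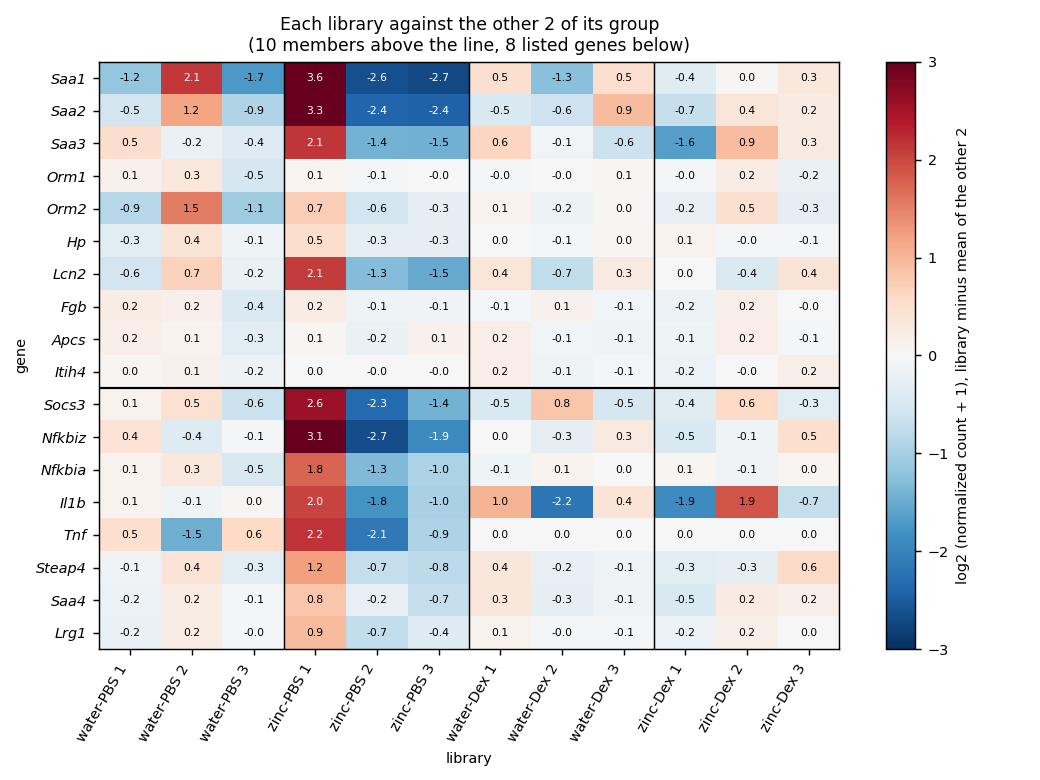
Log2 difference between each library and the mean of the other 2 of its group, as log2 of the normalized count plus 1, for the 10 genes (above the line) and 8 listed genes chosen after their values were seen (below it), where columns are the 12 libraries and numbers in the cells are the differences. Zinc-PBS replicate 1 stands out for Saa1, Saa2, Saa3, Lcn2, Socs3 and Nfkbiz, and water-PBS replicate 2 for Saa1, Saa2 and Orm2.

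Saa1 and Saa2, although high in the same 2 libraries, did not keep a constant ratio. Their longest coding transcripts were 93.5% identical over 612 aligned bases, with a longest identical run of 76 bases, so reads in shared stretches may have been left uncounted as multimapping and their levels are less certain than those of the other genes. Saa1 had 1.73, 3.11 and 1.5 reads per Saa2 read in water-PBS, 2.47, 2.06 and 2.01 in zinc-PBS, 7.95, 3.63 and 4.32 in the water-Dex group and 5.41, 3.94 and 4.69 in the zinc-Dex group. The highest PBS ratio, 3.11, was below the lowest Dex ratio, 3.63, so the groups did not overlap by injection. The mean log2 ratio was 1.21 higher with Dex. A two-sided exact permutation of the injection within each drink gave p = 0.005, the smallest that 400 rearrangements allow, and 0.01 after adjustment over the 4 ratios examined. It was 1.32 in water-drinking and 1.10 in zinc-drinking mice, 1.26 without zinc-PBS replicate 1 and 1.32 without water-PBS replicate 2. All 4 ratios were chosen after the values of the genes were seen, and the adjustment over 4 ratios does not correct for that choice. Where the PBS and Dex ranges of a ratio do not overlap, the permutation p follows from that order and is no separate support.

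Saa4, a further member of the serum amyloid A family, had 1.46 to 10.6 reads per Saa1 read in PBS libraries and 9.86 to 21.8 in Dex libraries (log2 difference 1.34, exact permutation p = 0.01, adjusted 0.013). The PBS and Dex ranges overlapped. The lowest PBS ratios, 1.46 and 2.16, were those of zinc-PBS replicate 1 and water-PBS replicate 2, the libraries with high Saa1. Without zinc-PBS replicate 1 the log2 difference was 0.97, and without water-PBS replicate 2 it was 1.09. Saa4 itself rose with Dex in both drinks, as given below, so this ratio does not measure Saa1 alone. Among the orosomucoids, Orm3 had 0.00878 to 0.0267 reads per Orm1 read with PBS and 0.0285 to 0.0681 with Dex, and these ranges did not overlap (log2 difference 1.59, exact permutation p = 0.005, adjusted 0.01). Orm3 itself also rose with Dex, as given below. The ratio of Orm1 to Orm2 ran from 11.1 to 29.2 with PBS and from 19.8 to 35.6 with Dex and differed by less than its spread (log2 difference 0.31, exact permutation p = 0.28). Orm1 was 91.0% identical to Orm2, with an identical run of 141 bases, and 86.1% identical to Orm3, so the same limit on shared reads holds for this family.

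**Figure D4:**
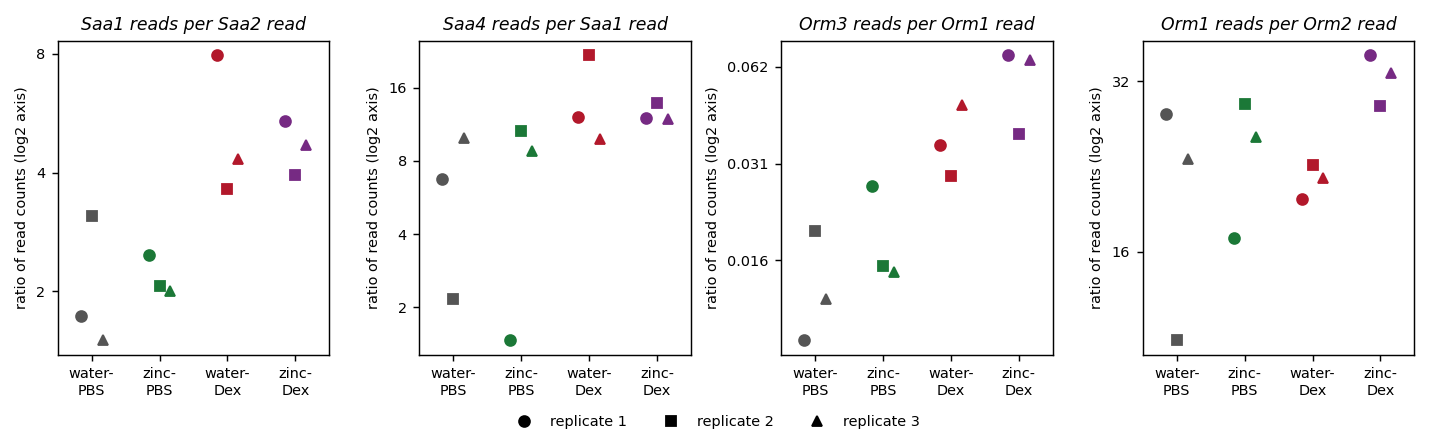
Ratio of read counts between family members (log2 axes) in the 12 libraries, by group, with symbols for replicates 1 to 3: Saa1 to Saa2, Saa4 to Saa1, Orm3 to Orm1 and Orm1 to Orm2. Saa1 to Saa2 stays at or below 3.11 with PBS and at or above 3.63 with Dex, and Orm3 to Orm1 is likewise separated.

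The genes around the 10 were followed in 3 lists of 61 genes in all, chosen with earlier results of these data known. Of 25 other positive acute phase genes, Dex raised 9 in water-drinking mice and 7 in zinc-drinking mice and lowered none. Dex called 4.89% of all tested genes higher and 4.79% lower in water-drinking mice. In zinc-drinking mice these shares were 5.0% and 4.68%. Because the lists were chosen with results known, their counts do not test them against all genes. Serpina3k, Serpina3m and Serpina3n, relatives of alpha-1-antichymotrypsin, rose 2.29-fold, 2.78-fold and 2.69-fold in water-drinking mice and 2.04-fold, 3.13-fold and 2.63-fold in zinc-drinking mice. The gene intervals of Serpina3k and Serpina3m overlap on the same strand, so their counts may not be fully separate. Saa4 rose 4.84-fold (log2 2.28, SE 0.21, DESeq2 adjusted p = 4.8e-26) and 2.56-fold (log2 1.35, SE 0.21, adjusted p = 1.7e-09). Orm3 rose 2.73-fold and 3.02-fold, and the interleukin-1 receptor antagonist Il1rn 2.53-fold and 3.71-fold. C-reactive protein, Crp, rose 1.79-fold and the lipopolysaccharide-binding protein Lbp 1.96-fold in water-drinking mice. In zinc-drinking mice their log2 changes of 0.63 and 0.48 were under the fold threshold. The remaining called gene was the lipopolysaccharide co-receptor Cd14 (log2 1.04 and 0.83). C3, the most abundant complement component of the list, changed by log2 0.08 and -0.04 (adjusted p = 0.72 and 0.87).

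None of the 10 negative acute phase genes, whose levels fall in inflammation, was called with Dex (DESeq2). At an unadjusted p under 0.05 there were 2 higher and 1 lower in water-drinking mice and 4 higher in zinc-drinking mice, and edgeR called 0. Of all tested genes 15.8% were higher and 15.1% lower at that p in water-drinking mice, and 15.3% and 13.9% in zinc-drinking mice. Albumin, Alb, was 0.30 and 0.29 higher on the log2 scale (SE 0.08 in both, adjusted p = 0.0012 and 0.0020), under the fold threshold, and Ahsg changed by 0.13 and 0.04 (adjusted p = 0.57 and 0.89).

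Of 26 cytokine, receptor and signalling genes, 5 rose and 3 fell with Dex in water-drinking mice. In zinc-drinking mice 4 rose and 5 fell. Among all tested genes 4.89% were called higher and 4.79% lower with water, and 5.0% and 4.68% with zinc. This list too was chosen with results known, so its counts do not test it against all genes. The interleukin receptors Il6ra (3.61-fold and 2.90-fold) and Il1r1 (4.33-fold and 3.24-fold) and the transcription factors Cebpb (4.38-fold and 4.48-fold) and Cebpd (4.66-fold and 3.91-fold) rose in both. Nfkbia rose in water-drinking mice (log2 1.67, SE 0.44, DESeq2 adjusted p = 0.0015) and had log2 0.99 (adjusted p = 0.10) in zinc-drinking mice, where it was called in edgeR (log2 0.98, adjusted p = 0.047) and without zinc-PBS replicate 1 (log2 1.83). Cebpa fell by 0.89 and 0.99 on the log2 scale. Socs3 fell by 2.76 and 4.20, and the latter fell by 2.77 without zinc-PBS replicate 1. Il1b, chosen after its values were seen, was at 24.5 to 134 normalized counts in PBS libraries and at 0 to 4.44 in Dex libraries. Tnf had no read in any of the 6 Dex libraries, which allows up to 3 counts in each, and at most 23.5 normalized counts in PBS libraries, and it was called in zinc-drinking mice but had no adjusted p there without zinc-PBS replicate 1. The shared receptor chain Il6st changed by -0.14 and -0.21 (adjusted p = 0.27 and 0.065). Il1a fell in zinc-drinking mice by 1.39 on the log2 scale.

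Zinc with PBS called 0 of the 61 listed genes in DESeq2 and in edgeR, and 10 of them were at an unadjusted p under 0.05, all higher. Over all tested genes 3.29% were higher at that p. Without zinc-PBS replicate 1 the count was 2 (Il1rap and Lbp), against 1.97% of all tested genes higher. Zinc with Dex called 1, Il1rn, 1.89-fold higher (log2 0.92, SE 0.27, DESeq2 adjusted p = 0.0499), against 0.305% of all tested genes called higher, and edgeR called 0. The interaction called 0 in both tools, with 3 genes (Lbp, Nr3c1 and Saa4) lower at an unadjusted p under 0.05.

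**Figure D5:**
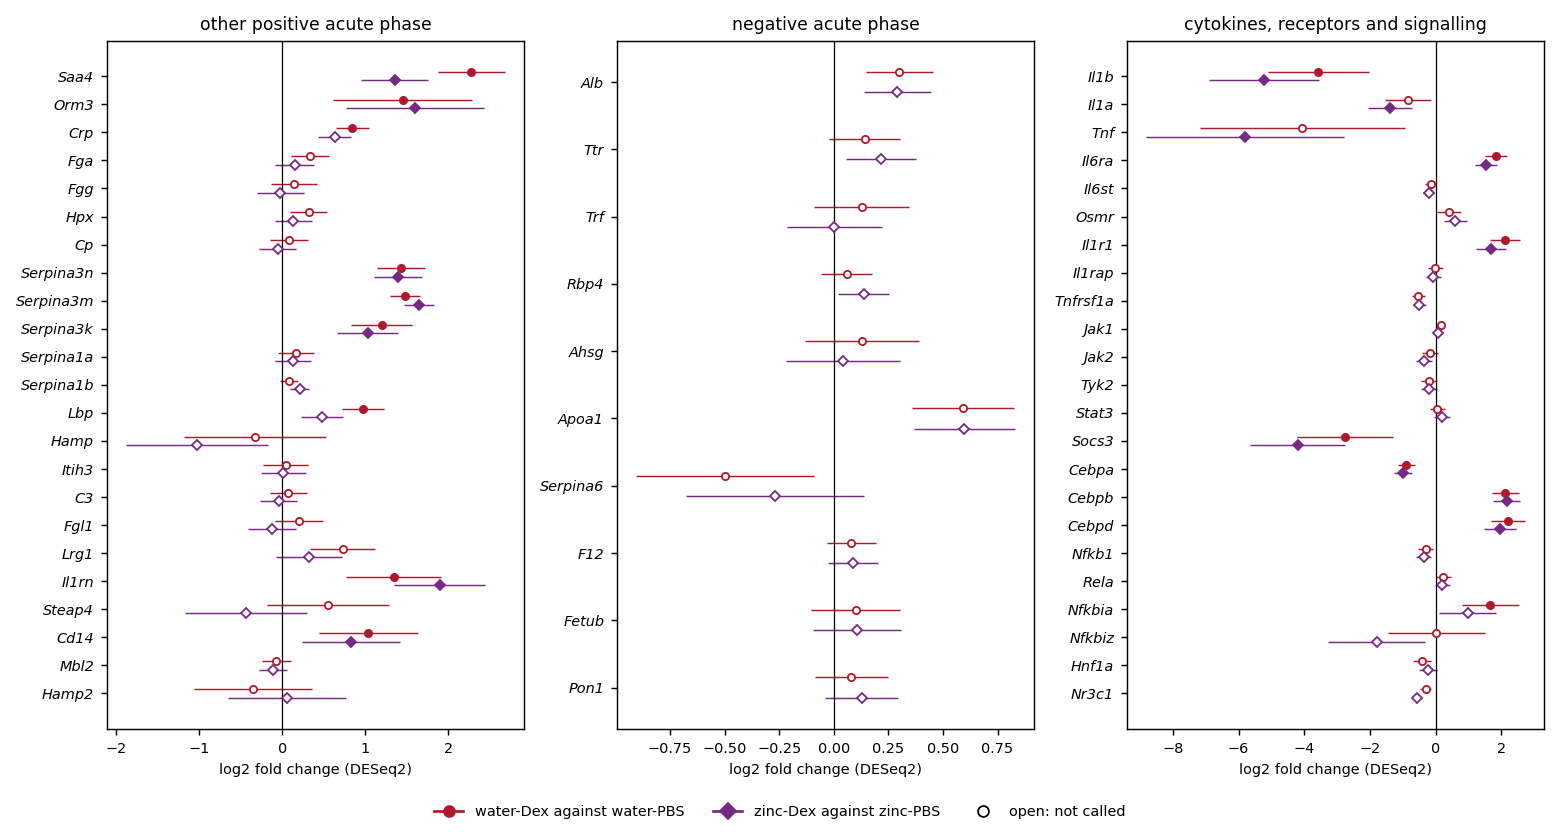
Log2 fold changes with Dex (DESeq2, bars are 95% confidence intervals) of the listed genes with at least 10 reads in a library, in water-drinking mice (red circles) and zinc-drinking mice (purple diamonds), filled where called. From left to right, the panels show other positive acute phase genes, negative acute phase genes, and cytokines, receptors and signalling genes, each with its own axis range.

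Saa3 and Lcn2 are also made by cells other than hepatocytes, so markers of those cells were read beside them. The summed level of 9 Kupffer cell markers was 5500 to 7796 normalized counts in water-PBS, 6558 to 6966 in zinc-PBS, 6242 to 7807 in the water-Dex group and 6336 to 6992 in the zinc-Dex group. These ranges overlapped, and in zinc-PBS replicate 1 the sum was 6558. The 10 neutrophil markers summed to 182 in zinc-PBS replicate 1, against 65.6 and 110 in the other 2, to 57.1 to 88.2 in water-PBS, 56.4 to 78.2 in the water-Dex group and 45.5 to 98.8 in the zinc-Dex group. Of these, Ly6g, Ngp and Camp never exceeded 3 reads. Of the 6 adipocyte markers Lep and Retn were at 0 and Adipoq, Plin1 and Cfd at no more than 3 reads in every library, so their sum was that of Fabp4, at 91.2 to 115 with PBS and 225 to 295 with Dex. The part of neutrophils in the Lcn2 and Saa3 values of zinc-PBS replicate 1 was not tested.

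The genes whose pattern over the 12 libraries was most like each member were found by Pearson's r of log2 (normalized count + 1) among 9574 genes, as a description without a test, since all points share the same libraries and group differences. Hp was most like Retreg1 (r = 0.992), Cdip1 (0.988) and Slc37a4 (0.987). Lcn2 was most like Serpina3n (0.992), Osbpl1a (0.990) and Wasf2 (0.990), and Fgb most like the fibrinogen alpha chain Fga (0.972). For the genes that followed the high libraries the best values were lower. Saa1 was most like Ezr (0.830) and Steap4 (0.828), Saa2 like Nfkbiz (0.863) and Saa3 like Steap4 (0.819). Among the 10 genes themselves, Hp and Lcn2 had r = 0.985, Saa1 and Saa2 0.771, Orm1 and Orm2 0.738, and Hp and Saa2 -0.17.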

How the data were processed

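Liver RNA was sequenced from 12 mice in 4 groups of 3, with groups taken from the labels, which do not say how animals were housed, so p-values measure the spread between these libraries. The authors made single-end stranded TruSeq libraries, sequenced them on a NextSeq 500, mapped reads to mm10 with HISAT2 2.0.4 and deposited featureCounts read counts per gene, excluding multimapping reads. Trimmomatic is listed in the submitters' processing notes. The annotation release and strand setting are not given in the sources used here. The deposited counts held 54838 genes, 26191 with a read, at 9091152 to 12303527 counts per library.

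All 12 libraries entered 1 DESeq2 1.42.0 Wald test, the tool of the study (R 4.3.3, unshrunken fold changes, called at adjusted p under 0.05 and log2 fold change beyond 0.8). An adjusted p that the Cook's distance filter removed stayed missing. edgeR 4.0.16, TMM factors, filters, a replicate block, only the libraries compared and leaving out each library were alternatives. The code was tested on simulated data. The members, lists and tests were chosen with earlier results of these data known. The named genes are the 10 members, up to 8 called genes and the 2 most abundant of each list, and the 3 genes most like each member, with others named as chosen after their values were seen (Steap4, Nfkbiz, Il1b, Tnf, Cd14, Il1rap, Nr3c1). Figures and permutation tests used Python 3.11.15 with scipy 1.17.1. Intervals cover the model's error, and read counts without molecular identifiers are not independent molecules.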

Additional observations from a re-analysis of the deposited data

How the results depend on the processing

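The calls of Hp and Lcn2 with Dex, in both drinks and in the combined group, stood under every alternative run, with DESeq2, edgeR, TMM factors, both count filters and each library left out. The number of the 10 genes called was 2 or 3 in these 3 comparisons under every alternative, and 0 for zinc with Dex and for the interaction. For zinc with PBS it was 0 except with no fold threshold, where it was 1 (Hp). Of the 61 listed genes, dropping the fold threshold gave 28 called for zinc-Dex against water-PBS (15 with it), 27 for Dex in zinc-drinking mice (16 with it) and 1 for zinc with PBS (0 with it). The single call for zinc with Dex, Il1rn, became 0 in edgeR, with TMM factors, with no independent filtering and with the replicate block, and was 0 to 1 with 1 library left out. With 1 library left out the listed count was also 0 to 1 for zinc with PBS and 0 to 1 for the interaction, in both cases Saa4 without zinc-PBS replicate 3. The cause was not tested.

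Leaving out 1 library at a time turned the sign of several log2 fold changes that were not called. The ranges were, for Dex in water-drinking mice, Apcs -0.11 to 0.045, Itih4 -0.083 to 0.027, Orm1 -0.16 to 0.11, Orm2 -0.60 to 0.39 and Saa2 -0.87 to 0.035. For Dex in zinc-drinking mice they were Orm1 -0.072 to 0.072, Saa1 -1.37 to 1.31, Saa2 -2.28 to 0.14 and Saa3 -1.30 to 0.20, of which Saa2 alone was called, at its low end only, without zinc-PBS replicate 2 or 3. For zinc with PBS they were Orm2 -0.84 to 0.16, Saa1 -1.002 to 2.29 and Saa2 -0.75 to 1.73, and for zinc with Dex Apcs -0.084 to 0.054, Itih4 -0.038 to 0.091 and Saa2 -0.32 to 0.26. For zinc-Dex against water-PBS they were Apcs -0.13 to 0.030, Itih4 -0.055 to 0.068 and Saa1 -0.078 to 1.39. For the interaction they were Lcn2 -0.98 to 0.46, Orm1 -0.10 to 0.16, Orm2 -0.89 to 0.11, Saa1 -2.58 to 0.71 and Saa2 -1.86 to 0.62.

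Leaving out both zinc-PBS replicate 1 and water-PBS replicate 2, chosen after seeing the data, turned the sign of Apcs (0.018), Itih4 (0.026), Orm1 (0.11), Orm2 (0.39) and Saa2 (0.037) for Dex in water-drinking mice, of Saa1 (1.31), Saa2 (0.14) and Saa3 (0.20) for Dex in zinc-drinking mice, of Saa2 for zinc with PBS (-0.24), of Apcs (0.0046) for zinc-Dex against water-PBS, and of Lcn2 (0.18), Orm1 (-0.081) and Saa2 (0.10) for the interaction. These 2 libraries were singled out for high values of these genes, so nothing is drawn from calls made without both.

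The replicate numbers shared between groups did not pair the samples: deviations of same-numbered libraries correlated at -0.17 to 0.072 over 18 pairs, against -0.16 to 0.20 over the 36 other pairs. A replicate block called 2 of the 10 genes in each Dex comparison, as without it, and 17, 15 and 15 listed genes for Dex in water-drinking mice, Dex in zinc-drinking mice and zinc-Dex against water-PBS. It turned the sign of Orm1 for Dex in water-drinking mice (0.0055) and for the interaction (-0.0047). Saa3 had the fewest reads of the 10 genes, and how far its depth of 15 to 178 reads limited its calls was not tested.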
